A study of Mus musculus with 46 samples.

Results

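The genes described here make cholesterol and fatty acids or control that synthesis. They are 34 genes taken from a list by symbol, out of 55487 genes in each deposited file. By role, 7 encode steps from acetyl-CoA to farnesyl diphosphate (the mevalonate steps), 11 encode steps from squalene to cholesterol, 7 act in sterol sensing, sterol transport or glucose-responsive transcription, 5 make fatty acids, and 4 desaturate or elongate them. All 34 passed the filter on low counts in each of the 3 experiments.

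Sterol synthesis is governed by transcription factors of the SREBP family, encoded by Srebf1 and Srebf2. When sterols are plentiful, these factors are held in the membrane of the endoplasmic reticulum with their escort Scap by the Insig proteins. When sterols fall, they are cut free and raise transcription of most genes of the mevalonate and cholesterol steps. In liver, Srebf1 and the glucose-responsive factor Mlxipl (ChREBP) also drive fatty acid synthesis, and in beta cells Mlxipl responds to glucose.

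RNA was sequenced from 46 mouse libraries in 3 experiments. The first comprised islets labelled Tfam control (5 female and 3 male libraries) or Tfam KO (4 female and 2 male). The second comprised islets labelled Clec control or Clec KO, written Clec16a in the descriptions, on a diet given as RFD (4 control and 4 KO) or HFD (6 control and 5 KO), neither spelled out. The third comprised 13 livers, with 6 control, 4 Mfn DKO and 3 Tfam KO libraries, and AAV stands in their descriptions. Tfam encodes a factor that maintains mitochondrial DNA, Mfn1 and Mfn2 encode proteins of mitochondrial fusion, and Clec16a acts in mitophagy. Isolated islets spent a night in culture before extraction, and livers were frozen. The labels used here give no age, no promoter that drives a deletion, and no allele or agent that controls and knockouts share. They call the libraries biological replicates without naming animals, so p-values measure the spread between these libraries.

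Each Tfam islet library held between 55223041 and 83342809 counts, each Clec16a islet library between 16235173 and 55810879, and each liver library between 41961114 and 56894510. Tfam was lower in every library labelled Tfam KO than in every control of its experiment, and Mfn1 and Mfn2 were lower in every Mfn DKO liver than in every control liver. Clec16a did not fall in islets labelled Clec16a KO, with a log2 fold change of 0.13 on RFD and 0.08 on HFD, so its counts do not check that label. Among the HFD islets labelled KO, replicate 4 stood apart, and counts of calls there are given with and without it. In bulk RNA, fewer cells of a type and less RNA per cell cannot be told apart.

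Levels of different genes are compared by the authors' deposited TPM, which is scaled for transcript length. In control Tfam islets Acly, which splits citrate into acetyl-CoA for lipid synthesis, had a mean TPM of 769 ± 124 (SD, n = 8), against 131 ± 18.6 (SD, n = 6) in control livers. The desaturases Scd1 and Scd2, which place the double bond in oleate, were split by tissue. Scd1 had a mean TPM of 3.89 ± 1.299 in control Tfam islets and 506 ± 311 in control livers, whereas Scd2 had 87.6 ± 23.8 and 2.56 ± 0.364.

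Over the control libraries of all 3 experiments, 21 of the 34 genes had every control liver above every control islet by TPM and 9 overlapped. The other 4, with every control liver below every control islet, were Sqle, Srebf2, Acly and Scd2. Of the 14504 genes that passed the filter in all 3 experiments, 18.4% had every control liver above every control islet and 36.4% below. Tissue and experiment cannot be told apart here, so these levels carry no test.

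**Figure D1:**
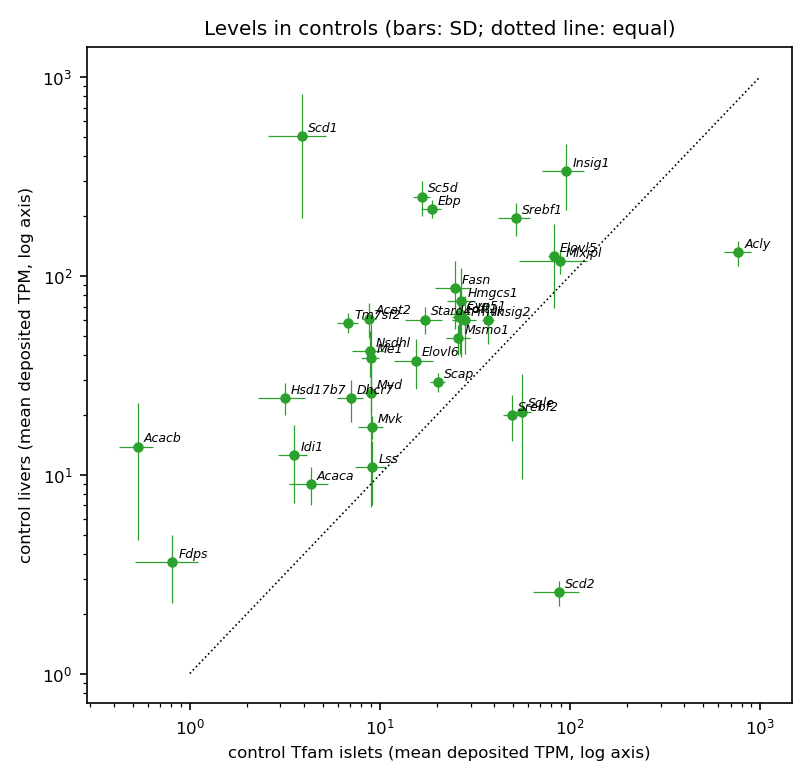
Mean deposited TPM of the 34 genes in 8 control Tfam islet libraries and in 6 control livers, on log axes. Scd1 stands far to the liver side, and Acly, Sqle, Srebf2 and Scd2 stand on the islet side.

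In Tfam KO islets the 34 genes did not move together: Hsd17b7 and Me1 rose, and Mlxipl, Fasn, Scd1 and Scd2 fell. Of the 34 genes, 9 were called by edgeR's quasi-likelihood test at an adjusted p of 0.05 or less with sex as a term, 3 higher and 6 lower. Of all 19752 genes tested, 20.9% were called, 11.6% higher and 9.29% lower. The median log2 fold change was -0.03 over the 34 genes and -0.0092 over all genes tested. None of the 7 mevalonate steps was called, and of the 11 steps from squalene to cholesterol 1 was called higher and 2 lower.

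Hsd17b7, which reduces a keto group on the way to cholesterol, was the only sterol enzyme among the 18 called higher. Its lowest, median and highest CPM (counts scaled to a common library size, after TMM scaling) were 5.37, 7.17 and 10.8 in the 8 controls. In the 6 KO libraries they were 12.5, 13.8 and 18.8 CPM. Every KO library lay above every control, and the log2 fold change was 0.95 (SE 0.15, edgeR adjusted p 0.000282).

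Ebp, the sterol isomerase, and Tm7sf2, a sterol reductase, were lower. Ebp had 17.001, 20.9 and 22.9 CPM at the lowest, median and highest control and 15.5, 16.7 and 17.7 CPM in KO. The groups overlapped, with a log2 fold change of -0.29 (SE 0.07, edgeR adjusted p 0.00602). The log2 fold change of Tm7sf2 was -0.24 (SE 0.08, edgeR adjusted p 0.042). Tm7sf2 shares 525 bases with Vps51, which overlaps it on the same strand, so its counts are uncertain.

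Among the regulators, Mlxipl fell and Scap rose slightly. Mlxipl was at 265, 247, 113, 141 and 239 CPM in the 5 female controls and 363, 237 and 205 CPM in the 3 male controls. It was at 114, 119.6, 97.1 and 98.7 CPM in the 4 female KO libraries and 102 and 76.4 CPM in the 2 male ones. Female control 3 lay inside the KO range and the other 7 controls lay above it, and the log2 fold change was -1.14 (SE 0.21, edgeR adjusted p 0.000875). Scap differed by 0.13 (SE 0.04, edgeR adjusted p 0.0277) on the log2 scale, with every KO library above every control. Srebf1 was at -0.51 (adjusted p 0.0564), Srebf2 at -0.04 (adjusted p 0.832) and Insig1 at -0.19 (adjusted p 0.455) by edgeR, none of them called. Srebf1 was called by DESeq2, without a filter on low counts, with at least 10 counts in every library, with the replicate number as a block and with an acinar marker score as a covariate, and in 4 of the 14 fits that each left out 1 library.

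In fatty acid synthesis, Me1, the malic enzyme that supplies NADPH, rose. Its lowest, median and highest CPM were 12.9, 16.2 and 18.3 in controls and 21.2, 22.9 and 29.2 in KO. The groups did not overlap, with a log2 fold change of 0.57 (SE 0.07, edgeR adjusted p 4.08e-05). Fasn, the synthase that makes palmitate, had 96.9, 126 and 161 CPM in controls and 68.3, 91.6 and 109.6 CPM in KO. Its groups overlapped, with a log2 fold change of -0.46 (SE 0.12, edgeR adjusted p 0.0137). Scd1 was lower by 0.72 on the log2 scale (edgeR adjusted p 0.0206) and Scd2 by 0.61 (edgeR adjusted p 0.0456).

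Scd1 and Scd2 spread widely among the female controls. Scd2 was at 174, 157, 264, 315 and 337 CPM in the 5 female controls and 88.3, 174, 240.0 and 195 CPM in the 4 female KO libraries, and these overlapped. The call on Scd2 was lost in 11 of the 14 fits that each left out 1 library, Tm7sf2 in 10, Scap in 5 and Scd1 in 2. Hsd17b7, Ebp, Mlxipl, Me1 and Fasn were called in all 14. Without male KO library 2, these 5 were the genes called. The share of all genes called in that fit is not given here, so the count is not set against it.

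The 25 genes not called lay between -0.51 (Srebf1) and 0.38 (Acacb) on the log2 scale, and 3 of them had an unadjusted p under 0.05. Hmgcs1, the synthase at the entry to the mevalonate steps, was at 48.5 to 85.7 CPM in controls and 55.4 to 74.04 CPM in KO. Sqle, the squalene epoxidase, was at 117 to 166 CPM in controls and 146 to 195 CPM in KO, and was not called (0.22, SE 0.09).

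The difference of the Tfam effect between the sexes was called for 0 of the 34 genes and for 0% of all genes by edgeR. Of all genes, 1230 had an unadjusted p under 0.05, and DESeq2 called 34. Of 7 beta cell markers, all 7 were called lower in Tfam KO islets, and their summed level was 105019 to 140710 CPM in KO and 187547 to 293686 CPM in controls. Of 3 delta cell markers, 2 were also called lower. Of 5 tested duct markers 1 was called higher, as was 1 of 5 tested macrophage and 1 of 5 tested fibroblast and stellate markers. The 6 acinar markers were not called, nor was any alpha cell or endothelial marker, and 7 adipocyte markers summed to 1.29 to 7.06 CPM. The part of these markers in these differences was not tested.

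**Figure D2:**
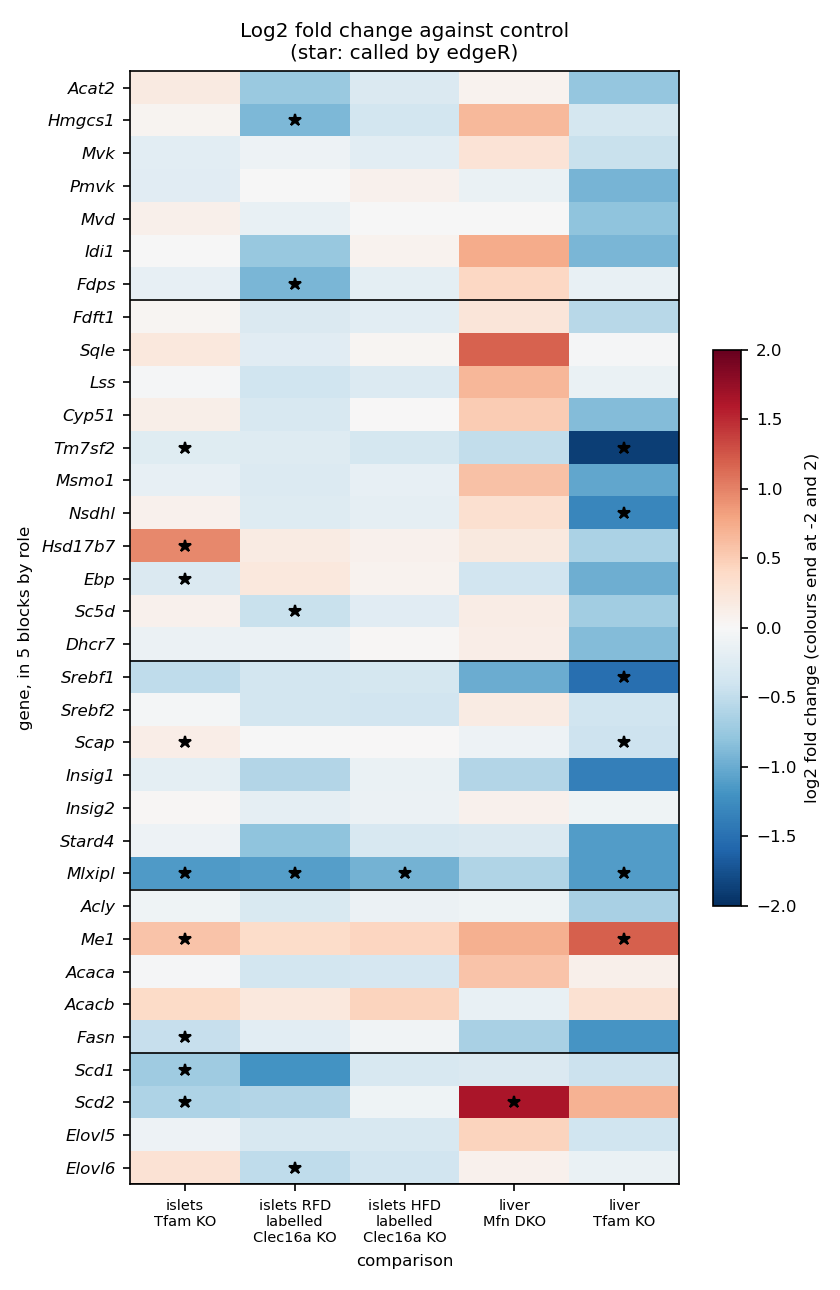
Log2 fold change against control of the 34 genes, in blocks by role, in the 5 genotype comparisons, with a mark where edgeR called the gene. Mlxipl carries the mark in 4 of the 5 comparisons.

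In islets labelled Clec16a KO on RFD, Hmgcs1 and Fdps of the mevalonate steps, the sterol enzyme Sc5d, the regulator Mlxipl and the elongase Elovl6 were lower than in controls. Of the 34 genes, 5 were called by edgeR, all lower (2 of the 7 mevalonate steps, 1 of the 11 steps from squalene to cholesterol, and 1 each of the regulators and of desaturation and elongation). Of all 17254 genes tested, 7.52% were called, 3.99% higher and 3.54% lower. The median log2 fold change was -0.31 over the 34 genes and -0.0016 over all genes tested, and 30 of the 34 genes lay below 0. All 7 mevalonate steps, all 7 genes of sensing and transport and all 4 of desaturation and elongation lay below 0. Without control replicate 1, 27 of the 34 genes lay below 0, and the mevalonate steps Mvk (0.02), Pmvk (0.05) and Mvd (0.11) lay above it. In that edgeR fit Mlxipl was the 1 gene called, and Hmgcs1 was at -0.73 (adjusted p 0.0511) and Fdps at -0.78 (adjusted p 0.123). Over the 8 fits that each left out 1 library, the call on Fdps was lost in 7. The calls on Sc5d and Elovl6 were lost in 6 each and that on Hmgcs1 in 1, whereas Mlxipl was called in all 8.

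Hmgcs1 was at 77.7, 52.6, 51.7 and 48.1 CPM in the 4 controls and 29.4, 29.7, 32.4 and 31.2 CPM in the 4 libraries labelled KO. The groups did not overlap, and the log2 fold change was -0.90 (SE 0.21, edgeR adjusted p 0.013). Fdps, the farnesyl diphosphate synthase, was at 5.80, 4.24, 3.92 and 4.27 CPM in controls and 2.46, 3.06, 2.41 and 1.82 CPM in the libraries labelled KO. Its groups did not overlap either, with a log2 fold change of -0.91 (SE 0.27, edgeR adjusted p 0.0425). Fdps has a near copy, Gm3571, that is 92.1% identical over 1053 bases, so its counts are uncertain.

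The other 5 mevalonate steps were not called. The largest differences among them were those of Idi1, the isomerase of isopentenyl diphosphate (-0.76, SE 0.44), and Acat2, which joins acetyl-CoA units (-0.74, SE 0.28). Acat2 is 90.9% identical to Acat3 over 1356 bases and is likewise uncertain.

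Sc5d, which adds a double bond to the sterol ring, was at 33.6, 26.9, 30.3 and 30.97 CPM in controls and 19.7, 22.6, 26.4 and 20.4 CPM in the libraries labelled KO, which did not overlap. Its log2 fold change was -0.45 (SE 0.12, edgeR adjusted p 0.0309). Elovl6, which elongates palmitate, was at 31.2, 23.9, 23.9 and 27.03 CPM and 17.3, 14.96, 18.2 and 23.7 CPM, again without overlap, and its log2 fold change was -0.51 (SE 0.14, edgeR adjusted p 0.0328).

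Mlxipl was at 653, 544, 958 and 789 CPM in the controls on RFD and 398, 346, 389 and 237 CPM in the libraries labelled KO. Every library labelled KO lay below every control, and the log2 fold change was -1.10 (SE 0.22, edgeR adjusted p 0.00643). The 29 genes not called lay between -1.19 (Scd1) and 0.37 (Me1), and 12 of them had an unadjusted p under 0.05. Srebf1 was at -0.36, Srebf2 at -0.36, Insig1 at -0.58, Sqle at -0.23 and Fasn at -0.21 on the log2 scale.

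Without overlap and lower on RFD were 13 of the 34 genes, namely the 5 called and Fdft1, Lss, Insig1, Stard4, Acly, Acaca, Scd1 and Scd2. Of all genes tested, 7.33% were without overlap and lower. Control replicate 1 on RFD was the highest of the 4 controls for 4 of the 5 genes called (Hmgcs1, Fdps, Sc5d and Elovl6) but not for Mlxipl. Without that library, 4.70% of all genes tested were called.

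Promoters of 3 genes are shown, because sterol genes are known for binding sites of SREBP, NF-Y and Sp1 near their starts, and Mlxipl binds elements built of motifs like the E box. Hmgcs1 and Mlxipl are the genes with the lowest adjusted p on RFD, with the sterol response element among the matches for Hmgcs1, and Hsd17b7 is the sterol enzyme that rose in Tfam KO islets. Each sequence is the 250 bases before the start of transcription in RefSeq on GRCm38.p6, 5′ to 3′ on the gene's strand. They lie at chr13:119690101-119690350 on the plus strand (Hmgcs1), chr5:135089640-135089889 on the plus strand (Mlxipl) and chr1:169969206-169969455 on the minus strand (Hsd17b7). Capitals mark matches on either strand to the sterol response element TCACNCCAC, the NF-Y box CCAAT, the Sp1 box GGGCGG or the E box CACGTG.
Hmgcs1: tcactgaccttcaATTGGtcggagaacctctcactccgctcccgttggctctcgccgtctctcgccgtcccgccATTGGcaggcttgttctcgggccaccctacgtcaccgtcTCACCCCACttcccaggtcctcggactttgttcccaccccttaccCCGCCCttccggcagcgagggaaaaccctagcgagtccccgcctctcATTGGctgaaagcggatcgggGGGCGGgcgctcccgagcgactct
Mlxipl: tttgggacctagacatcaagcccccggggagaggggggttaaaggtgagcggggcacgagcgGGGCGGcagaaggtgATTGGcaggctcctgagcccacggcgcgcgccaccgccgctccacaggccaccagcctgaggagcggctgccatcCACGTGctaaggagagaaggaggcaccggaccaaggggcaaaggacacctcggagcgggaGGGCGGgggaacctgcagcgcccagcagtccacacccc
Hsd17b7: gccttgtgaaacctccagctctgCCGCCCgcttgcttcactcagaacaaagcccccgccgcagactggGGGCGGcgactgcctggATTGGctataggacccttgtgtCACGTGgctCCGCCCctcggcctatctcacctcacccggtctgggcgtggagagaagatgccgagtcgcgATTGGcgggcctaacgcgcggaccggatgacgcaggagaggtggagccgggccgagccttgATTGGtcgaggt
The Hmgcs1 window holds 1 sterol response element, 3 NF-Y boxes and 2 Sp1 boxes. The Mlxipl window holds 1 NF-Y box, 2 Sp1 boxes and 1 E box. Of 2 Mlxipl promoters, the window with more matches is shown. The other promoter held 1 sterol response element and no NF-Y, Sp1 or E box. The Hsd17b7 window holds 3 NF-Y boxes, 3 Sp1 boxes and 1 E box.

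RefSeq promoters of 300 bases, 250 before and 50 after the start, were matched for 28 of the 34 genes. An NF-Y box lay in 24 of the 28 and in 41.1% of all 27025 genes of the table, and a Sp1 box in 22 of the 28 and in 38.2% of all. An E box lay in 7 of the 28 (Hsd17b7, Sc5d, Dhcr7, Scap, Insig1, Mlxipl and Elovl5) and in 8.09% of all. The sterol response element lay in 2 of the 28, Hmgcs1 and a second Mlxipl promoter, and in 1.44% of all genes. TGATGNAAT lay in 0 of the 28 and in 1.08% of all. A gene with several promoters was counted once if any of them held the motif. A match is a description of the letters in these windows and no measure of binding.

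On HFD, Mlxipl was the only one of the 34 genes called by edgeR in islets labelled Clec16a KO, where 9.57% of all genes were called, 5.62% higher and 3.95% lower. The lowest, median and highest of the 6 controls were 572, 791 and 927 CPM. The 5 libraries labelled KO were at 261, 325, 422, 552 and 462 CPM, all below every control. The log2 fold change was -0.95 (SE 0.19, edgeR adjusted p 0.00386). The median over the 34 genes was -0.17, and 24 of them lay below 0. Srebf1 was at -0.36, Srebf2 at -0.39, Insig1 at -0.14, Sqle at 0.03, Fasn at -0.07 and Scd1 at -0.32, and none was called.

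Replicate 4 of the HFD islets labelled KO stood apart in its sterol genes. Its Insig1 was at 134 CPM, against 70.1, 49.02, 50.95 and 42.04 CPM in the other 4 and 63.7 to 91.2 CPM in controls. Its Stard4, a carrier of sterols between membranes, was at 41.5 CPM, against 10.996 to 14.8 CPM in the other 4 and 18.9 to 28.5 CPM in controls. Its Hmgcs1 was at 66.6 CPM, against 26.4 to 38.1 CPM in the other 4 and 44.5 to 55.8 CPM in controls. Replicate 4 lay above every control for all 3 genes, whereas the other 4 lay below every control for Stard4 and Hmgcs1. It also held 1 count of Soat2, which esterifies cholesterol, where the other 4 held 54 to 242 and the 6 controls 1 to 63. Its Mlxipl, at 552 CPM, was the highest of the 5 but below every control. Whether its label is right was not tested.

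Without replicate 4, 13 of the 34 genes were called by edgeR, 12 lower and 1 higher, with 20.0% of all genes tested. Replicate 4 was singled out by its values of these same genes, Insig1, Stard4 and Hmgcs1 among them. The calls without it are therefore a description and no independent support. Stard4 was at -0.83 (adjusted p 0.00129), Hmgcs1 at -0.64 (adjusted p 0.00117), Srebf2 at -0.56 (adjusted p 0.00247), Srebf1 at -0.51 (adjusted p 0.0116) and Insig1 at -0.52 (adjusted p 0.0239) in that edgeR fit. Acaca, the carboxylase that commits acetyl-CoA to fatty acids, was at -0.46 (adjusted p 0.0018) and the elongase Elovl5 at -0.47 (adjusted p 0.000343). The others called lower were Fdft1, Lss, Tm7sf2, Mlxipl and Elovl6, and Me1 was called higher (0.44). The median over the 34 genes was -0.36 in that fit.

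**Figure D3:**
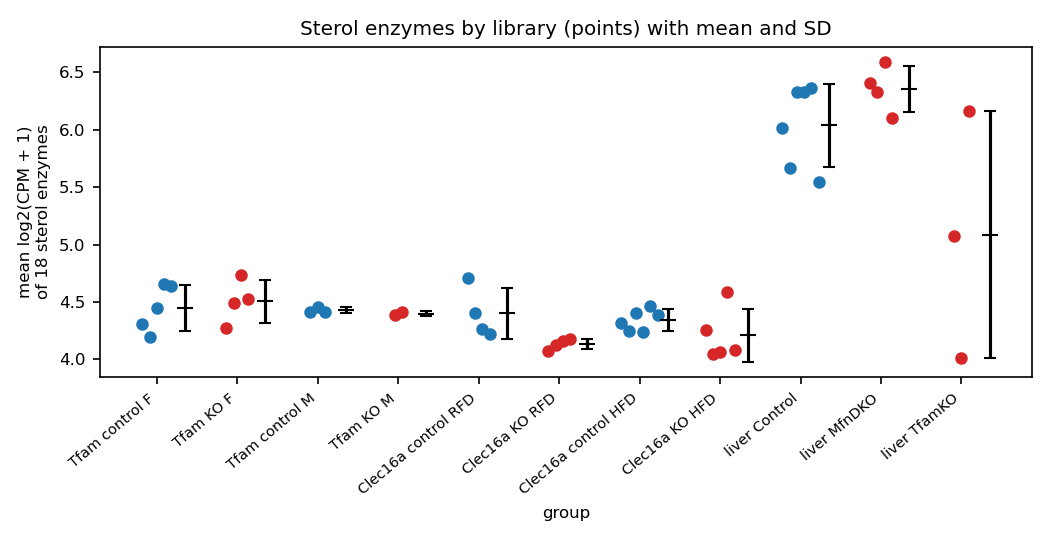
Mean log2(CPM + 1) over the 18 sterol enzymes in each library, by group. The HFD library labelled KO at 4.59 lies above the other 4 (4.05 to 4.26) and above the 6 controls (4.24 to 4.47), and the 3 Tfam KO livers spread from 4.01 to 6.17.

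Endothelial markers moved with the Clec16a label. All 4 were called higher on each diet, where 7.52% of all genes were called on RFD and 9.57% on HFD. Their summed level was 252 to 297 CPM in the RFD libraries labelled KO and 157 to 178 CPM in their controls. Of 7 beta cell markers, 2 were called lower on each diet. Of 5 tested fibroblast and stellate markers, 2 were called higher on RFD and 3 on HFD. Of 4 tested duct markers 1 was called higher, and of 5 tested macrophage markers 1 lower, on each diet. No alpha cell, delta cell or acinar marker was called. The part of these markers in these differences was not tested. By sequencing lane, read from the deposited names, the difference of mean log2 CPM of Mlxipl was -0.84 within lane 7 and -1.33 within lane 8 on RFD, and -1.20 and -0.81 on HFD. Lane 8 on RFD held 1 library labelled KO. For Hmgcs1 on RFD it was -1.04 and -0.75.

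Diet was compared within each genotype. In controls, 0 of the 34 genes and 0.0406% of all genes were called between HFD and RFD by edgeR. An unadjusted p under 0.05 was found for 1 of the 34 genes and for 973 of all genes, and DESeq2 called 57 of all genes. In islets labelled KO, 0 of the 34 genes and 0.0116% of all genes were called by edgeR. An unadjusted p under 0.05 was found for 2 of the 34 genes and for 946 of all genes, and DESeq2 called 42. The difference of the KO effect between the diets was called for 0 of the 34 genes and 0% of all genes by edgeR, with 0 and 406 at an unadjusted p under 0.05 and 21 of all genes called by DESeq2.

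Mlxipl was called lower in 4 of the 5 genotype comparisons, all but that of Mfn DKO livers (-0.60). Called in 2 comparisons each were Me1, Tm7sf2, Scap and Scd2. Tm7sf2 was lower in Tfam KO islets and livers, Scap was higher in Tfam KO islets and lower in Tfam KO livers, and Scd2 was lower in Tfam KO islets and higher in Mfn DKO livers. Me1 was called higher in Tfam KO islets and livers, and its log2 fold change was 0.57 in Tfam islets, 0.37 and 0.43 in Clec16a islets on RFD and HFD, 0.71 in Mfn DKO livers and 1.20 in Tfam KO livers. The liver comparisons share their controls.

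**Figure D4:**
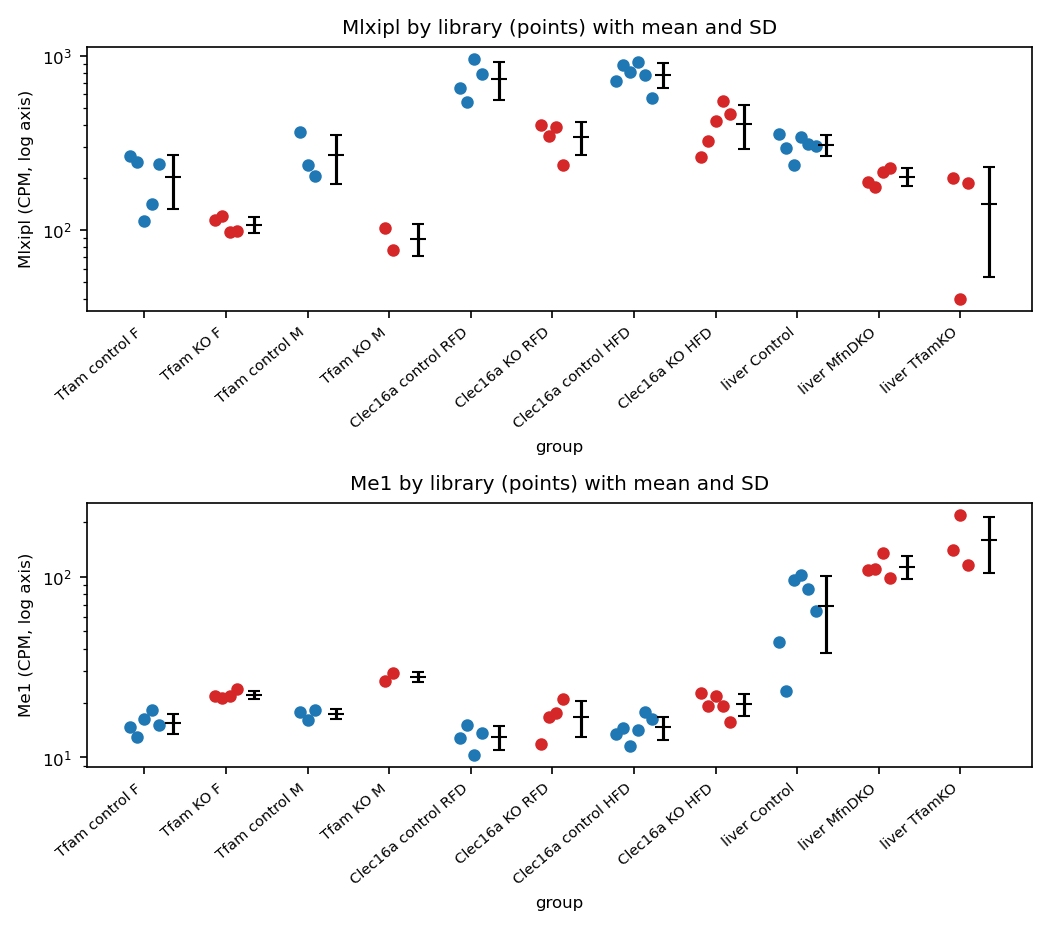
CPM of Mlxipl and of Me1 in each library, by group. Mlxipl of the Clec16a islets labelled KO lies below the controls on each diet, and Me1 of the Tfam KO islets and Tfam KO livers lies above their controls.

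In livers lacking both mitofusins, Scd2 was the only one of the 34 genes called by edgeR, where 9.87% of 17024 genes were called, 5.23% higher and 4.64% lower. Scd2 was at 5.64, 6.41 and 7.58 CPM at the lowest, median and highest of the 6 controls and 11.5, 33.7, 14.1 and 21.8 CPM in the 4 Mfn DKO livers. The groups did not overlap, and the log2 fold change was 1.63 (SE 0.27, edgeR adjusted p 0.00333). The median over the 34 genes was 0.14, against 0.02 over all genes tested, and 14 of the 18 sterol enzymes lay above 0. Mfn DKO livers lay below every control for Tm7sf2, Ebp, Srebf1 and Mlxipl, none of them called, where 10.3% of all genes were without overlap and lower.

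Srebf1 was at 391 to 651 CPM in controls and 255, 315, 233 and 234 CPM in Mfn DKO livers, with a log2 fold change of -0.99 (SE 0.38, edgeR adjusted p 0.113). Sqle was at 1.17 (SE 0.39, edgeR adjusted p 0.0713), Acaca at 0.57 (SE 0.18, edgeR adjusted p 0.0593) and Lss, which closes the sterol rings, at 0.67 (SE 0.24, edgeR adjusted p 0.0974). Insig1 (-0.59), Fasn (-0.66), Srebf2 (0.16) and Scd1 (-0.29) were not called. With only controls and Mfn DKO livers in the fit, 8 of the 34 genes were called, 4 higher and 4 lower, with 27.0% of all genes.

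The liver labels give no sex. Xist, which is made from the inactive X chromosome, was at 380 to 788 CPM in 7 livers and at most 0.705 CPM in 6. These classes come from the data and are not groups of the study. Control livers 3, 4 and 5 had high Xist, and controls 1, 2 and 6 low Xist.

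Some sterol enzymes differed between these control livers. Sqle was at 72.8, 71.9 and 86.04 CPM with high Xist and 30.8, 32.3 and 23.9 CPM with low Xist. Mvd, a decarboxylase of the mevalonate steps, was at 34.01, 31.8 and 41.1 CPM and 10.2, 6.998 and 7.03 CPM. Hmgcs1 was at 188, 226 and 240.3 CPM and 113, 88.4 and 89.2 CPM. The classes did not overlap for these 3 genes, which were chosen after their values were seen and carry no test. They did overlap for other sterol enzymes, Msmo1 and Tm7sf2 among them. The share of all genes without overlap between the classes is not given here, so the 3 genes are not set against it.

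In a fit by genotype and Xist class, chosen after the data were seen, Sqle was higher in Mfn DKO livers of low Xist. It was at 129 and 152 CPM in these 2 livers, with a log2 fold change of 2.27 (SE 0.37, edgeR adjusted p 0.0138), and Lss was at 1.20 (SE 0.26, edgeR adjusted p 0.038). Within high Xist, Sqle was at 0.36 (SE 0.37, edgeR adjusted p 0.682). Scd2 was at 2.04 (SE 0.25, edgeR adjusted p 0.00872) within high Xist and 1.01 (SE 0.25, edgeR adjusted p 0.0579) within low Xist. Of all genes, 3.03% were called within low Xist and 0.910% within high Xist. The difference between the classes (low less high Xist) was called for 0 of the 34 genes and 0% of all genes by edgeR. Of all 17024 genes, 503 had an unadjusted p under 0.05. Among the 34 genes these were Mvd (2.24), Sqle (1.92), Hmgcs1 (1.42), Me1 (1.35), Lss (0.97), Scd2 (-1.03) and Insig2 (-1.09), on the log2 scale. None passed the adjustment, so the effect is not shown to differ.

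**Figure D5:**
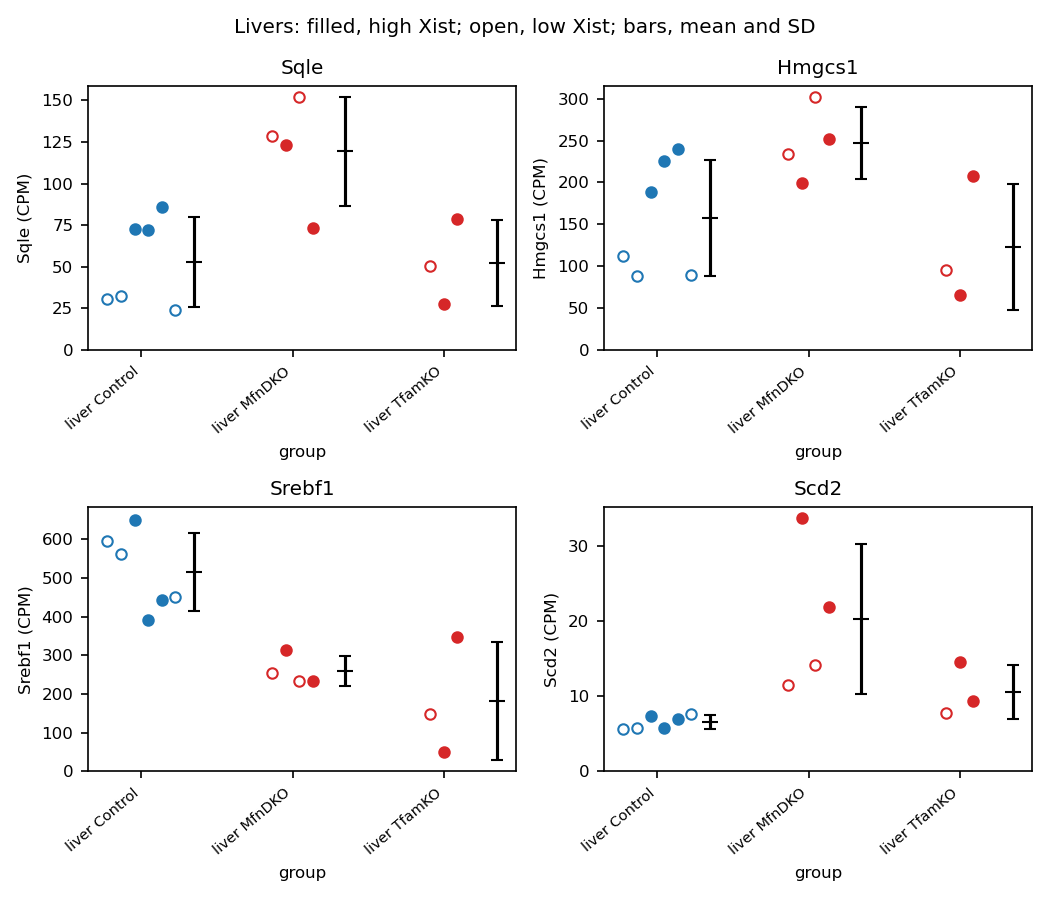
CPM of Sqle, Hmgcs1, Srebf1 and Scd2 in each liver, by group and by high or low Xist. In controls, the 3 livers of high Xist lie above the 3 of low Xist for Sqle and Hmgcs1.

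In Tfam KO livers, the regulators Srebf1, Mlxipl and Scap and the sterol enzymes Tm7sf2 and Nsdhl fell and Me1 rose. Of the 34 genes, 6 were called by edgeR, 5 lower and 1 higher. Of all 17024 genes, 29.3% were called, 18.1% higher and 11.3% lower. The median log2 fold change was -0.64 over the 34 genes and 0.03 over all genes tested. All 18 sterol enzymes lay below 0, with a median of -0.79, and 2 of them were called.

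Tm7sf2 was at 103 to 142 CPM in the 6 controls and 22.5, 4.75 and 69.9 CPM in the 3 Tfam KO livers. All 3 lay below every control, and the log2 fold change was -1.89 (SE 0.55, edgeR adjusted p 0.0227). Nsdhl, which removes a carbon from the sterol ring, was at 35.2 to 71.2 CPM and 15.4, 8.998 and 43.6 CPM. Replicate 3 lay inside the control range, and the log2 fold change was -1.298 (SE 0.40, edgeR adjusted p 0.03).

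Srebf1 was at 391 to 651 CPM in controls and 148, 50.02 and 347 CPM in Tfam KO livers, all below every control. Its log2 fold change was -1.50 (SE 0.44, edgeR adjusted p 0.0222). Mlxipl was at 236, 307 and 356 CPM at the lowest, median and highest control and 198, 40.3 and 186 CPM in Tfam KO livers, again without overlap. Its log2 fold change was -1.12 (SE 0.37, edgeR adjusted p 0.037), and that of Scap was -0.41 (SE 0.11, edgeR adjusted p 0.0187).

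Me1 was at 23.2, 75.3 and 102 CPM at the lowest, median and highest control and 140.5, 219 and 116 CPM in Tfam KO livers. All 3 lay above every control, and the log2 fold change was 1.20 (SE 0.36, edgeR adjusted p 0.0256). The call on Me1 was lost without Tfam KO replicate 1, without Tfam KO replicate 2 and without control liver 1, with a log2 fold change of 0.89 to 1.36 over the 9 fits that each left out 1 library. Of these 9 fits, 5 lost Mlxipl, 3 lost Nsdhl, and 1 each lost Tm7sf2, Srebf1 and Scap. Insig1 (-1.36), Fasn (-1.18), Scd1 (-0.43), Srebf2 (-0.39) and Sqle (-0.02) were not called.

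The 3 Tfam KO livers differed widely among themselves. In replicates 1, 2 and 3, Insig1 was at 96.3, 19.1 and 449.6 CPM, Sc5d at 367, 94.9 and 593 CPM and Fasn at 146, 48.9 and 388 CPM. Replicate 2 was the lowest and replicate 3 the highest for each. Of 7 hepatocyte markers 3 were called lower, and their summed level was 22326 to 91168 CPM in Tfam KO livers and 87727 to 132265 CPM in controls. Their part in these differences was not tested.

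Without replicate 3, 24 of the 34 genes were called, 23 lower and 1 higher, with 41.8% of all genes tested. Insig1 was at -3.08 (adjusted p 0.00121), Fasn at -2.19 (adjusted p 0.00182) and Dhcr7, a reductase at the end of cholesterol synthesis, at -1.89 (adjusted p 5.36e-05) in that edgeR fit. Replicate 3 was singled out above by its high values of these same genes, Insig1 and Fasn among them. The calls without it are therefore a description and no independent support. Without replicate 2, 3 of the 34 were called (Tm7sf2, Srebf1 and Mlxipl), with 14.5% of all genes. Without replicate 1, 2 were called (Mlxipl and Scap). The share of all genes in that last fit is not given here, so its count is not set against one.

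Tfam KO livers were also compared directly with Mfn DKO livers. By edgeR, 0 of the 34 genes and 0.294% of all genes were called. An unadjusted p under 0.05 was found for 16 of the 34 genes and for 3480 of the 17024 genes tested, and DESeq2 called 2 of the 34 and 3.29% of all genes. All 18 sterol enzymes lay below 0, and the median over the 34 genes was -0.78. Without Tfam KO replicate 3, 23 of the 34 genes were called lower, with 24.0% of all genes. That library had been singled out by its values of these same genes, so this count is likewise a description and no independent support.

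Other genes of sterol and fatty acid handling were read in the same fits. In Tfam KO islets, 6 of 11 genes of sterol uptake and intracellular transport were called, 5 of them higher, where 20.9% of all genes were called and 11.6% were higher. Soat2 had 0 counts in 7 of the 8 controls and 2 in the other, and 38 to 132 counts in the 6 KO libraries. Tmem97, a membrane protein that binds sterols, was at 1.52 (SE 0.12, edgeR adjusted p 2.33e-07) on the log2 scale. Of 7 other sterol genes, 1 was called higher and 1 lower. Of 7 genes of SREBP processing, the protease Mbtps2 (0.50) and Erlin1 (0.66) were higher and the ligase Rnf145 (-0.62) lower. Scd3, a further desaturase, rose by 2.10 (SE 0.15) where Scd1 and Scd2 fell.

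In islets labelled Clec16a KO on RFD, Aacs, which activates acetoacetate, was called lower, at -0.89 (SE 0.16, edgeR adjusted p 0.00438). Soat2 had 0, 4, 0 and 0 counts in the controls and 77, 50, 196 and 145 in the libraries labelled KO.

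In livers, Mbtps2 was called higher in Mfn DKO (0.75) and in Tfam KO (1.17), and Tecr, the enoyl reductase of fatty acid elongation, lower in each (-0.78 and -1.22). The call on Mbtps2 in Mfn DKO was lost in 6 of the 10 fits that each left out 1 library. Abcg5 and Abcg8, which together move sterols into bile, were at -1.06 and -1.26 in Tfam KO, both called, and Npc1, which exports cholesterol from lysosomes, was called higher (1.03). Of 18 tested genes of fatty acid supply and modification, 8 were called in Tfam KO livers, 3 higher and 5 lower, where 29.3% of all genes were called. Of the 7 other sterol genes, 0 were called in either liver comparison by edgeR.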

How the data were processed

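RNA of 46 mouse islet and liver libraries was read from the raw counts, CPM and TPM per gene that the authors deposited, 1 file per library. Per the submitters' processing notes, STAR 2.6.1b, RSEM 1.3.1, featureCounts, DESeq2, FastQC and MultiQC were used with GRCm38, without roles being given. The strand setting and the annotation release are not given in the sources used here, so overlapping genes and near copies are uncertain. The deposited CPM equals the count over the library total. Symbols were taken from the deposited files, per the file headers.

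Counts were tested within each experiment by edgeR 4.0.16 in R 4.3.3 (TMM scaling, filterByExpr on the group, quasi-likelihood test, Benjamini-Hochberg adjustment over all genes tested, threshold 0.05), with sex as a term for the Tfam islets and 1 mean per group otherwise. The SE is the log2 fold change over the square root of F. Printed CPM are on TMM-scaled library sizes. A list is described by its counts and median. Alternatives were DESeq2 1.42.0, its size factors, other filters on low counts, the replicate number as a block, marker, lane and Xist terms, fits of the compared groups only, and each library left out in turn, with 4 alternatives added after the data were seen. The test was run on simulated data: at a fold of 2, 67% of changed genes were recovered for the Tfam islet comparison on 19417 genes, 58.9% for Clec16a islets on RFD on 16992 and 38.6% for Mfn DKO livers on 16688. In the same order, 5.11%, 7.2% and 6.17% of the calls were of genes left unchanged, each above the threshold of 0.05. No comparison of Tfam KO livers was simulated.

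All 34 genes may be named. Those called in a comparison were to be described, with Srebf1, Srebf2, Insig1, Sqle, Fasn and Scd1 always given, and up to 3 called genes of each other list. The 34 genes and the lists were chosen with earlier results of these data known. Groups come from the labels. Replicate numbers were checked for pairing: the median correlation of residuals of libraries with the same number was 0.0653 for islets of the Tfam experiment, -0.0163 for those of the Clec16a experiment and 0.0873 for livers, so the numbers were not used as pairs.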

Additional observations from a re-analysis of the deposited data

Results flagged for a closer look

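In groups of 4 to 10 libraries, the highest or lowest library stood apart from its neighbours by Dixon's criterion in 6 of 89 groups of values, where chance gives about 1 in 20. Hsd17b7 was at 10.8 CPM in female Tfam control 5, the highest of 5. Insig1 was at 159.9 CPM in female Tfam KO 3, the highest of 4. Hmgcs1 was at 77.7 CPM in Clec16a control replicate 1 on RFD, the highest of 4, and this is the library without which 1 of the 34 genes was called on RFD. Insig1 was at 40.6 CPM in replicate 3 of the RFD islets labelled Clec16a KO, the lowest of 4. Scd1 was at 9.78 CPM in Clec16a control replicate 1 on HFD, the highest of 6, and at 2619 CPM in control liver 1, the highest of 6.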

How the results depend on the processing

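Where a count below stands without a share of all genes, that share is not given here. Such a count cannot be told from a change over all genes. Of the 34 genes, the number called in Tfam KO islets was 9. It became 10 with at least 10 counts in every library, by DESeq2 and with the acinar score, each of which called Srebf1. On leaving out each library it was 5 to 9. In the islets labelled Clec16a KO on RFD it was 5, and 1 to 4 with each library left out. On HFD it was 1, and became 3 with at least 10 counts in every library, 4 by DESeq2, and 2 each with the acinar score, the lane or only the compared groups, with 1 to 13 on leaving out each library. In Mfn DKO livers it was 1, and became 2 with at least 10 counts in every library, 4 by DESeq2, 3 with Xist as a covariate, 8 with only the compared groups, 0 in livers of high Xist (0.0117% of all genes) and 19 in livers of low Xist (24.8% of all genes), with 1 to 2 on leaving out each library. In Tfam KO livers it was 6, and became 11 by DESeq2, 2 with only the compared groups, 0 in livers of high Xist (0% of all genes) and 22 in livers of low Xist (5894 of all 17345 genes), with 2 to 24 on leaving out each library. Against Mfn DKO livers it was 0, and became 2 by DESeq2 and 25 in livers of low Xist (14.2% of all genes), with 0 to 23 on leaving out each library. Fits of 1 Xist class hold fewer livers (low Xist holds 1 Tfam KO liver, assumed to vary like the other groups, so the 22 and 25 rest on 1 liver), and the cause of the other changes was not tested.

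The replicate number as a block gave 8 genes called in Tfam islets, 3 on RFD and 1 on HFD. Against control livers it gave 1 in Mfn DKO livers and 0 in Tfam KO livers. Nothing but a shared number ties the libraries. Shares of all genes called with the block are not given here, so these counts are not set against them. Srebf2 in Tfam islets turned to 0.014 with the block and ranged from -0.11 to 0.012 with each library left out.

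The genes that turned direction were not called in the comparison of all libraries. On HFD, leaving out single libraries gave Sqle -0.031 to 0.095 and Scd1 -0.63 to 0.041. In Mfn DKO livers, Srebf2 was -0.077 and Scd1 0.42 in livers of high Xist, and with each library left out Scd1 ranged from -0.61 to 0.12. In Tfam KO livers, Sqle was 0.77 and Fdps 0.92 in livers of low Xist, which hold 1 Tfam KO liver. With each library left out, Sqle ranged from -0.46 to 0.29. Scd1 was 0.13 in livers of high Xist and ranged from -2.05 to 0.034 with each library left out. The 3 Tfam KO livers and libraries of 16235173 counts or more limit what can be called. Near copies and overlapping genes limit Acat2, Fdps, Fdft1, Cyp51 and Tm7sf2, among others. Me1 has a near copy, Gm48795, that is 92.3% identical over 1146 bases. Acaca has Gm5182 (97.3% over 6109 bases) and Idi1 has Gm13502 (90.4% over 706 bases). Srebf1 overlaps Rai1 on the opposite strand.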
